A study of Mus musculus with 6 samples.

Results

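The secreted Wnt inhibitors described here are 10 genes, *Sfrp1*, *Sfrp2*, *Sfrp4*, *Sfrp5*, *Frzb*, *Wif1*, *Dkk1*, *Dkk2*, *Dkk3* and *Sost*, found by their symbols among the 54532 genes of the count table. Each symbol matched 1 gene, and 7 of the 10 had enough reads to be tested. RNA sequencing was done on Gli1+ and Gli1- cells sorted from cartilage of *Gli1-CreERT2; tdTomato* (Ai9) mice on a C57BL/6 background, 1 month old and harvested 24 h after tamoxifen (TAM). Gli1+ cells were CD45- CD31- Ter119- tdTomato+, Gli1- cells were CD45- CD31- Ter119- tdTomato-, and each population had 3 libraries. Both populations carried the same alleles and received TAM. The tissue was costal cartilage in the study's account of this experiment and growth plate in the labels. The red label needs CreER from the *Gli1* locus and TAM, so that Gli1- cells could include cells that express *Gli1* but were not labelled.

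Wnt ligands are secreted proteins that bind Frizzled receptors and the co-receptors Lrp5 and Lrp6 and, in the canonical branch, stabilise beta-catenin. Secreted inhibitors act outside the cell at 2 points. The SFRPs, FRZB (also called Sfrp3) and WIF1 bind Wnt ligands themselves, whereas DKK1, DKK2 and sclerostin, the product of *Sost*, bind Lrp5 and Lrp6. DKK3 is the divergent DKK, for which no binding to these co-receptors is established. In cartilage, *Frzb* and *Wif1* are known as genes of chondrocytes, and *Sost* is known mainly from osteocytes.

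The bases just upstream of 2 inhibitor genes are shown because *Wif1* had by far the highest level of the group and *Sfrp5* was the member with the opposite direction. They come from RefSeq (GRCm38.p6), are written 5′ to 3′ on the gene's own strand and end before the first annotated base of the gene. Capitals mark the letters GGGCGG or their reverse complement CCGCCC, the core of a GC box. For *Wif1* the stretch is chr10:121033754-121033959 on the plus strand, and for *Sfrp5* it is chr19:42202253-42202502 on the minus strand.
Wif1: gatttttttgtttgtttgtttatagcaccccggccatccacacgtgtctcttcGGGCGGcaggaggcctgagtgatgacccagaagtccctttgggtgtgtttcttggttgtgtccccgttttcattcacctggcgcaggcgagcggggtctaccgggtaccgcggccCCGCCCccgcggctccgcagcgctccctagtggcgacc
Sfrp5: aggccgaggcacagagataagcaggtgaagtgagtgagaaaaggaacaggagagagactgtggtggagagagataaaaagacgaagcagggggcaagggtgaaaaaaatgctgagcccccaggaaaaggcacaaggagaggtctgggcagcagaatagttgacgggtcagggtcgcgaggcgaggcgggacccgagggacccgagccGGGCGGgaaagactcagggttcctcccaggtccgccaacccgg
RefSeq promoters were matched for 7 of the 10 members, *Sfrp2*, *Sfrp5*, *Frzb*, *Wif1*, *Dkk1*, *Dkk2* and *Sost*, and none was matched for *Sfrp1*, *Sfrp4* or *Dkk3*. In the 250 bases before the RefSeq start, searched on both strands, the GC box letters occurred in 4 of the 7, namely *Wif1* (2 matches), *Dkk2* (2 matches), *Sfrp5* and *Frzb* (1 match each), against 32.7% of 32851 promoters. The TATA box letters TATAAA occurred in 3 of the 7 (*Wif1*, *Dkk1* and *Dkk2*), against 12.4% of promoters. The CCAAT box letters occurred in 2 of the 7 (*Dkk2* and *Sost*), against 33.8%. The TCF/LEF letters CTTTGAA or CTTTGAT occurred in 1 of the 7, *Dkk1*, at 117 bases before the start, against 7.48% of promoters. The letters CCACCCA, a core of the GLI site GACCACCCA, occurred in 0 of the 7 on either strand, against 8.11% of promoters for the core and 0.225% for the whole site. Such matches describe letters in a window and say nothing of binding.

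The sort was checked first on *Gli1*. Its level, in CPM (counts scaled by TMM to a common library size), was 4.55, 6.39 and 7.98 in Gli1+ replicates 1, 2 and 3 and 0.724, 1.26 and 2.43 in Gli1- replicates 1, 2 and 3. The lowest Gli1+ value exceeded the highest Gli1- value, although the counts behind these values were low, 86 to 152 against 14 to 46, and *Arhgap9* and the antisense gene *Gm47200* overlap *Gli1*. Libraries held 17114101 to 18602482 counts. Gli1+ replicate 1 detected 15000 genes and the other 5 libraries 20666 to 23360. Both libraries numbered 2 stood apart in cartilage genes, though not all in 1 direction. *Col2a1*, the main cartilage collagen, was 4.02 times the mean of numbers 1 and 3 in Gli1+ cells and 5.22 times in Gli1- cells. Most other chondrocyte markers listed, such as *Comp*, *Cnmd* and *Matn3*, were likewise highest in number 2 in both populations. The exceptions were *Acan*, the aggrecan gene, and *Sox9*, which encodes a chondrocyte transcription factor, each lowest in number 2 in both populations. Deviations from the population means correlated between same-numbered libraries, at 0.720 for number 2 and 0.471 for number 3. For number 1 the pairing was less clear, with 0.223 beside 0.274 between Gli1+ replicate 1 and Gli1- replicate 3. Fits with the number as a block are given beside the fit without it.

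Fitted levels of *Wif1*, *Dkk3* and *Frzb* were 7.10-, 5.60- and 3.26-fold lower in Gli1+ than in Gli1- cells, and that of *Sfrp5* was 7.59-fold higher, each with an SE of 0.73 to 0.99 on the log2 scale (n = 3 each). By edgeR's quasi-likelihood test with Benjamini-Hochberg adjustment over 14801 genes, 0 of the 7 tested inhibitors passed an adjusted p under 0.05 with a |log2 fold change| (log2FC) over 1. Across all genes this fit called 0% as well, its smallest adjusted p being 0.9999. Without adjustment, 4 of the 7 had p under 0.05 (*Wif1*, *Dkk3*, *Frzb* and *Sfrp5*), against 3.47% of all genes. Libraries of the populations did not overlap for 1 of the 7, against 8.49%, and 5 of the 7 differed in the same direction in all 3 same-numbered pairs, against 37.4%. With the replicate block in edgeR, 4 of the 7 had an unadjusted p under 0.05, against 8.61% of all genes, and the smallest adjusted p of any gene was 0.307. DESeq2's Wald test with the block called 4 of the 7 and 2.89% of all genes. Those called were 3 inhibitors lower in Gli1+ cells, against 2.11% of genes, and 1 higher, against 0.777%. Without the block, DESeq2 called 0 of the 7, and 30 of all genes. The median log2FC of the 7 inhibitors was -1.51 by edgeR, with 0.0013 over all tested genes. P-values measure the spread between these libraries, and in bulk RNA fewer cells of a type and less RNA per cell cannot be told apart.

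**Figure D1:**
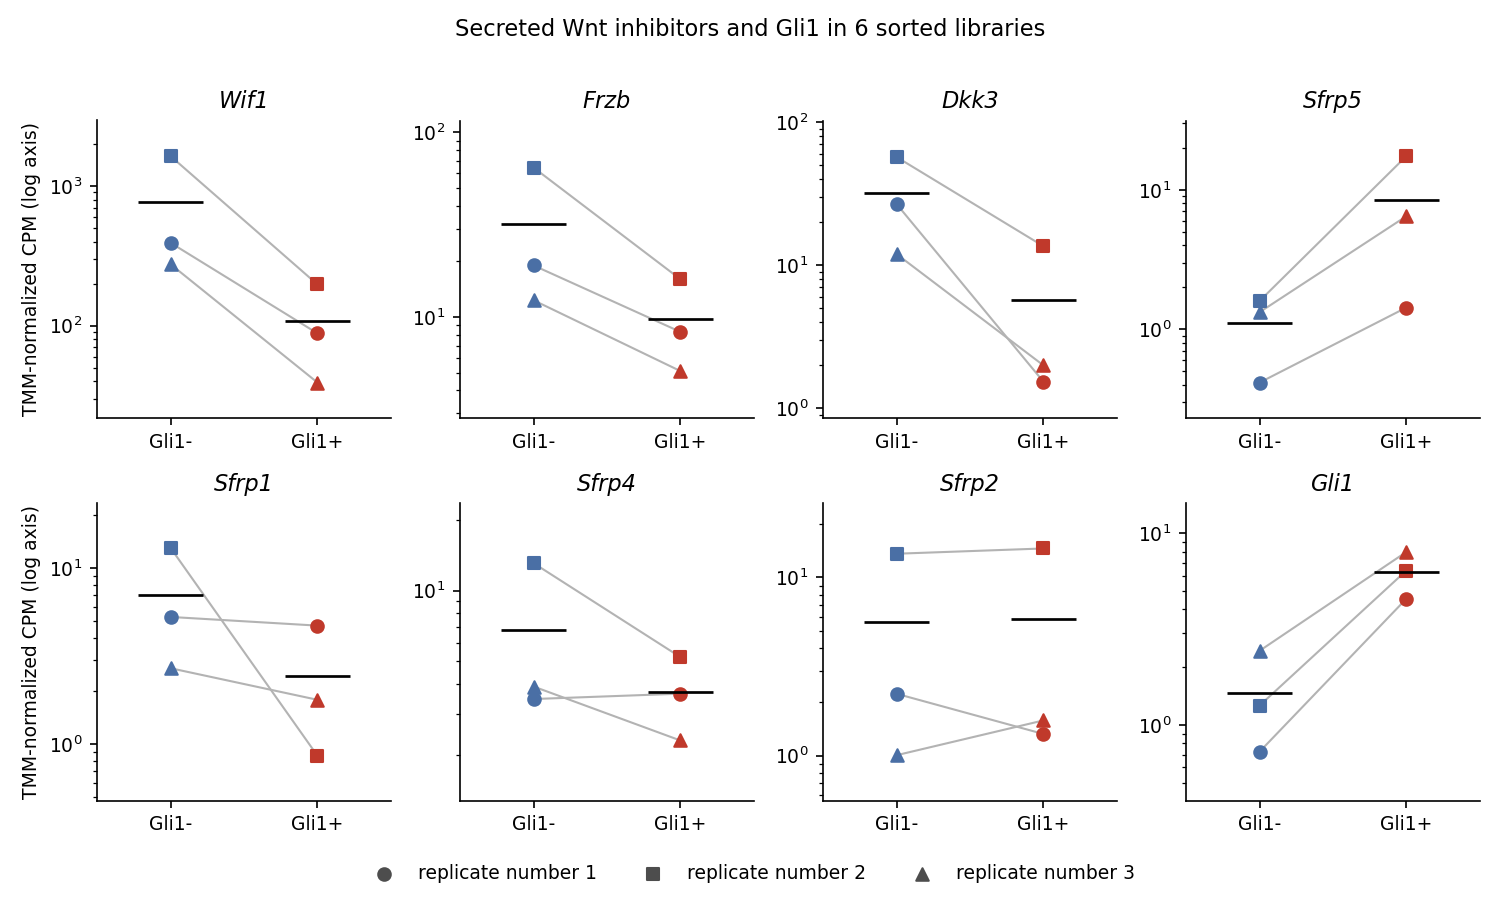
TMM-scaled CPM on log axes for the 7 tested inhibitors and *Gli1*, with 1 marker per library, marker shape for the replicate number, grey lines joining same-numbered libraries and black bars for population means. All lines slope down towards Gli1+ for *Wif1*, *Frzb*, *Dkk3* and *Sfrp1* and up for *Sfrp5*, and squares (number 2) are the top marker of most panels.

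Among inhibitors that bind the ligand, *Wif1* (ENSMUSG00000020218, chromosome 10, 121033960 to 121100650, plus strand, GRCm38) encodes a protein with a WIF domain and EGF repeats. Its CPM was 88.1, 197 and 39.2 in Gli1+ replicates 1 to 3 and 391.99, 1637 and 275 in Gli1- replicates 1 to 3, from 746 to 24680 counts. Every Gli1- library was above every Gli1+ library, and the same-numbered pairs differed by 4.45-, 8.29- and 7.03-fold. Means were 108 ± 81.0 CPM for Gli1+ and 768 ± 755 CPM for Gli1- cells (SD, n = 3 each). The edgeR log2FC was -2.83 ± 0.88 (SE), a level 7.10-fold lower in Gli1+ cells, with an adjusted p of 0.9999 by the quasi-likelihood test. With the block the SE shrank to 0.31 around a log2FC of -2.67, and edgeR placed *Wif1* at rank 4 of 14801 genes by p-value with an adjusted p of 0.307. DESeq2 with the block gave -2.69 ± 0.34 and an adjusted p of 8.2e-12, within a range of 6.0e-38 to 1.0 over all alternatives. The smallest came from that fit without the libraries numbered 1, on fewer libraries.

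*Frzb* (ENSMUSG00000027004, chromosome 2, 80411970 to 80447625, minus strand) encodes a Frizzled-related protein abundant in cartilage. Its CPM was 8.31, 16.03 and 5.09 in Gli1+ replicates 1 to 3, and 19.03, 64.5 and 12.3 in Gli1- replicates 1 to 3. Gli1+ replicate 2 was above Gli1- replicate 3, so the populations overlapped, while within each pair the Gli1+ library was lower, by 2.29-, 4.03- and 2.42-fold. The edgeR log2FC was -1.70 ± 0.73 (quasi-likelihood adjusted p = 0.9999) and -1.49 ± 0.32 with the block (adjusted p = 0.381). DESeq2 with the block gave -1.51 ± 0.40 and an adjusted p of 0.00953, and over all alternatives the adjusted p ran from 7.2e-06 to 1.0. Without the libraries numbered 2, DESeq2 with the block gave -1.25 (adjusted p = 0.682), and without those numbered 3 it gave -1.59 (adjusted p = 0.349), so that the call was lost in both cases.

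*Sfrp5* (ENSMUSG00000018822, chromosome 19, 42197971 to 42202252, minus strand) encodes an SFRP close in sequence to SFRP1. Its CPM was 1.43, 17.4 and 6.46 in Gli1+ replicates 1 to 3 and 0.414, 1.59 and 1.32 in Gli1- replicates 1 to 3. Gli1+ replicate 1 lay below Gli1- replicate 2, the remaining Gli1+ libraries lay above all Gli1- libraries, and every pair was higher in Gli1+ cells, by 3.45-, 11.0- and 4.88-fold. The counts were small, 27, 284 and 123 against 8, 24 and 25. The edgeR log2FC was 2.92 ± 0.99 (quasi-likelihood adjusted p = 0.9999) and 2.53 ± 0.54 with the block (adjusted p = 0.381). DESeq2 with the block gave 2.54 ± 0.65 and an adjusted p of 0.00714, in a range of 5.7e-07 to 1.0 over the alternatives. That call was lost without the libraries numbered 3 (2.68, adjusted p = 0.355). Without number 2 the log2FC was 2.03, and DESeq2 gave no adjusted p. The study had singled out *Sfrp5* on these same libraries, so its direction here is not independent evidence.

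The other SFRP genes were measured at a few CPM. *Sfrp1* had 4.71, 0.860 and 1.79 CPM in Gli1+ and 5.27, 13.0 and 2.70 CPM in Gli1- replicates 1 to 3. The pairs were 1.12-, 15.1- and 1.51-fold lower in Gli1+ cells, so that most of the difference of -1.51 ± 0.86 on the log2 scale (edgeR quasi-likelihood adjusted p = 0.9999) came from number 2. It was called only by DESeq2 with the block and without number 1 (log2FC -2.23, adjusted p = 0.0167, in a range of 0.0167 to 1.0), and the log2FC was -0.39 in that fit without number 2. *Sfrp4* had 3.65, 5.22 and 2.31 against 3.46, 13.1 and 3.91 CPM, which gave -0.87 ± 0.71 (edgeR adjusted p = 0.9999) and a lower Gli1+ value in 2 of 3 pairs. *Sfrp2* had 1.32, 14.6 and 1.58 CPM for Gli1+ against 2.22, 13.6 and 1.01 CPM for Gli1-. Its log2FC of 0.054 ± 1.21 changed sign in 8 of 17 alternatives, so it has no direction here. Both libraries numbered 2 held about the same high level of *Sfrp2*, 10.04 and 8.42 times the mean of numbers 1 and 3. *Gm26771*, an antisense gene, overlaps *Sfrp2*, and whether the counts used strand is not given in the sources used here.

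*Dkk3* (ENSMUSG00000030772, chromosome 7, 112116017 to 112159057, minus strand) was the member of the DKK family with reads enough for a test. Its CPM was 1.53, 13.6 and 1.996 in Gli1+ replicates 1 to 3 and 26.7, 57.0 and 12.0 in Gli1- replicates 1 to 3. Gli1+ replicate 2 was above Gli1- replicate 3, and the pairs were 17.4-, 4.20- and 5.99-fold lower in Gli1+ cells. The edgeR log2FC was -2.48 ± 0.97 (quasi-likelihood adjusted p = 0.9999) and -2.89 ± 0.51 with the block (adjusted p = 0.336). DESeq2 with the block gave -2.90 ± 0.52 and an adjusted p of 7.4e-06, in a range of 2.9e-10 to 1.0. *Wif1* and *Dkk3* were the members that DESeq2 with the block still called when the libraries of any 1 number were left out. The log2FC then lay between -2.94 and -2.50 for *Wif1* and between -3.37 and -2.31 for *Dkk3*. These fits rest on fewer libraries. Over all genes they called 781, 174 and 71 without numbers 1, 2 and 3, beside 428 with every library.

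The inhibitors that bind Lrp5 and Lrp6 were barely detected. *Dkk2* had 0, 6 and 2 counts in Gli1+ and 0, 9 and 1 counts in Gli1- replicates 1 to 3. *Dkk1* had 1 count in all 6 libraries together, in Gli1+ replicate 2, and *Sost* had 1, in Gli1- replicate 3. *Dkk1* and *Sost* were at or under a floor of 3 counts in every library, and none of these genes was given a fold change. The 3 osteocyte markers, none with reads enough for a test, summed to 0 to 1.10 CPM in Gli1+ and 0.899 to 3.12 CPM in Gli1- libraries.

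**Figure D2:**
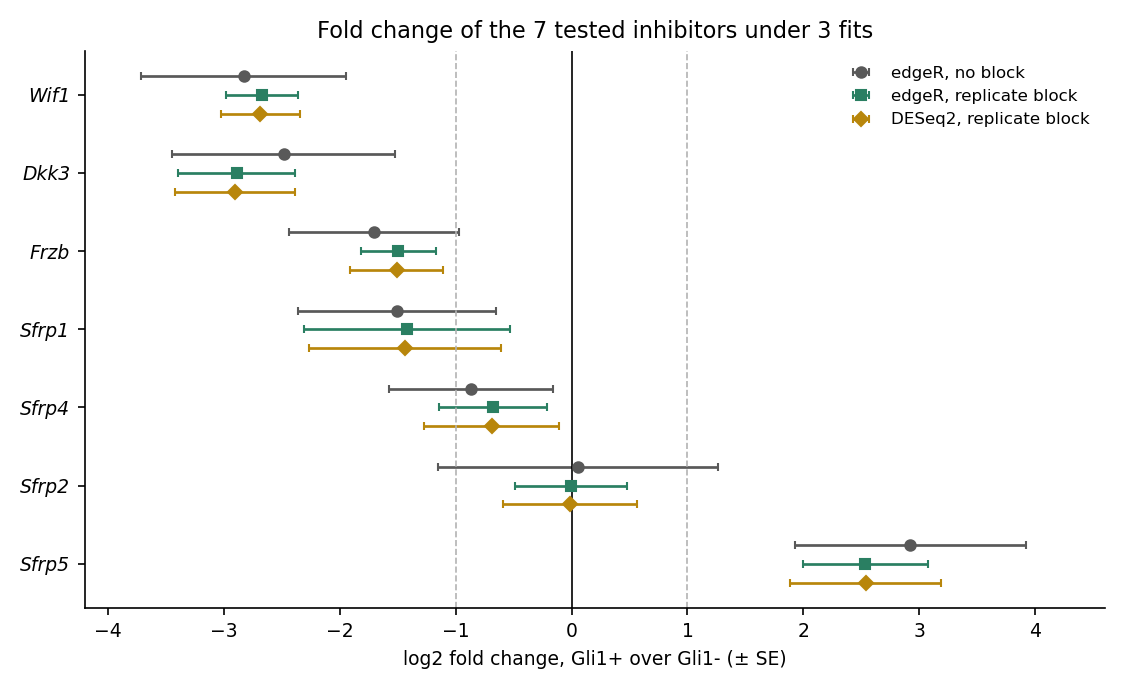
Log2 fold change (Gli1+ over Gli1-) with its SE for the 7 tested inhibitors by edgeR without a block, edgeR with the replicate block and DESeq2 with the replicate block, with dashed lines at a 2-fold difference in either direction. Estimates move by less than their SE without a block, while the bars of *Wif1*, *Dkk3*, *Frzb*, *Sfrp2*, *Sfrp4* and *Sfrp5* shorten with the block (for *Wif1* from 0.88 to 0.31), and *Sfrp2* is the gene centred near no difference (0.054).

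Levels of different genes were compared per length, as CPM divided by the gene's length in kb (RPKM). *Wif1* led in both populations, with a mean of 44.6 RPKM in Gli1+ and 316 RPKM in Gli1- cells. The order below it differed. *Sfrp5* (mean 4.44 RPKM) came next in Gli1+ cells, followed by *Frzb* (3.03), *Sfrp2* (2.70), *Dkk3* (1.70), *Sfrp4* (0.892) and *Sfrp1* (0.561), and the ranges of all neighbours in this order below *Wif1* overlapped. In Gli1- cells the order was *Frzb* (9.87 RPKM), *Dkk3* (9.49), *Sfrp2* (2.60), *Sfrp4* (1.63), *Sfrp1* (1.60) and *Sfrp5* (0.584), again with overlapping ranges between neighbours. The summed level of the 10 genes was 42.7, 108 and 23.4 RPKM in Gli1+ and 179, 725 and 124 RPKM in Gli1- replicates 1 to 3, so the lowest Gli1- sum was above the highest Gli1+ sum. Most of that was *Wif1*, which made up 68.9 to 85.1% of the sum in Gli1+ and 90.4 to 93.1% in Gli1- libraries. Without it the sums were 6.34, 26.5 and 7.29 against 17.1, 50.3 and 10.1 RPKM and overlapped.

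The make-up of this remainder was compared as shares. *Dkk3* held 7.21, 15.2 and 8.15% of the summed RPKM without *Wif1* in Gli1+ replicates 1 to 3 and 46.5, 33.7 and 35.2% in Gli1- replicates 1 to 3. *Sfrp5* held 11.9, 34.6 and 46.6% against 1.27, 1.67 and 6.88%. Neither share overlapped between populations, whereas that of *Frzb* did, at 40.5, 18.7 and 21.6% against 34.3, 39.6 and 37.6%. These shares rest on the same counts as the tests above and were given no test of their own.

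**Figure D3:**
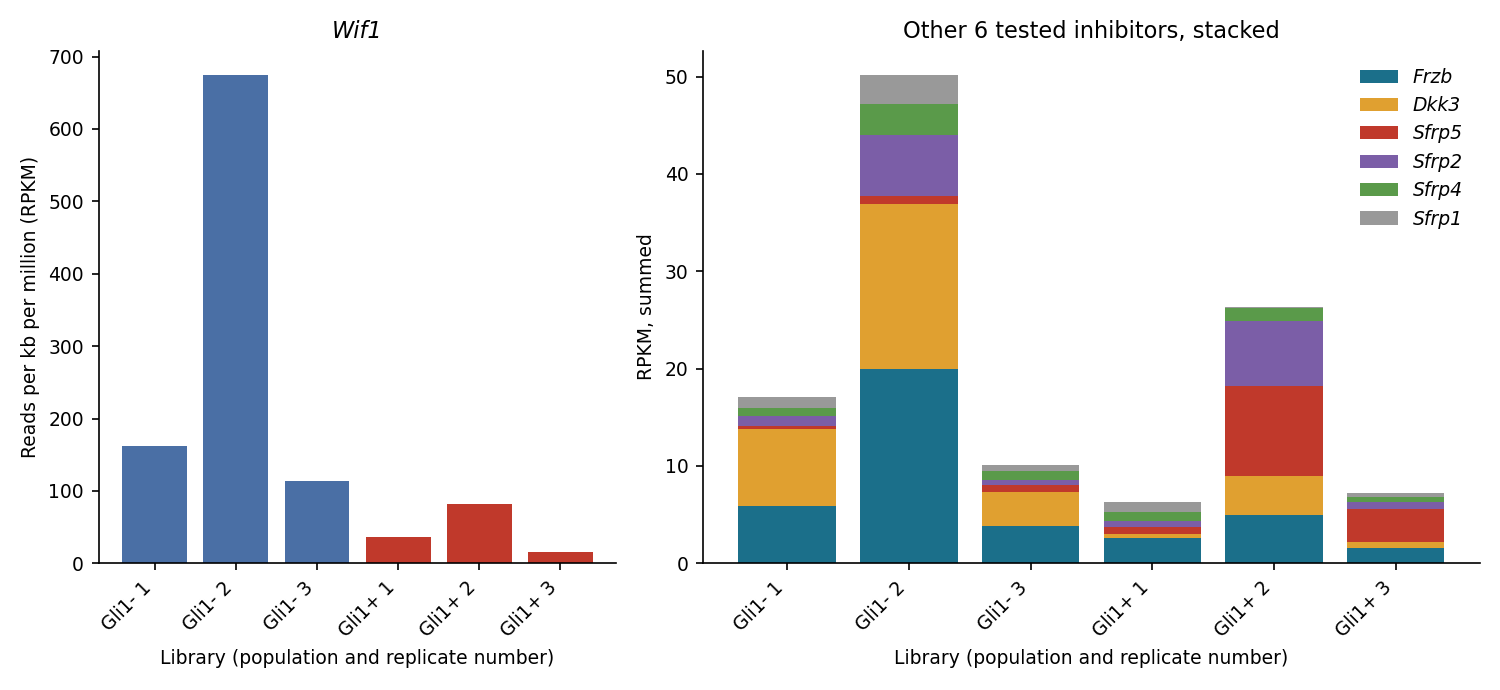
RPKM of *Wif1* in each library (left; blue Gli1-, red Gli1+) and stacked RPKM of the other 6 tested inhibitors (right, colour by gene). *Wif1* reaches 674 RPKM in Gli1- replicate 2 and stays at 81.3 or less in Gli1+ libraries, and *Dkk3* makes up much of the Gli1- stacks and *Sfrp5* much of the Gli1+ stacks of replicates 2 and 3.

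Libraries numbered 2 were the highest of their population for 6 of the 7 tested inhibitors in Gli1+ cells and for all 7 in Gli1- cells. The exception was *Sfrp1* in Gli1+ cells, which was lowest in number 2. For *Wif1*, number 2 was 3.10 times the mean of the other libraries in Gli1+ and 4.91 times in Gli1- cells. *Gli1* did not share this pattern, with ratios of 1.02 and 0.798. The 12 chondrocyte markers summed to 9236 to 25949 CPM in Gli1+ and 7823 to 34406 CPM in Gli1- libraries, with number 2 highest in both. Every marker of that list except *Acan* and *Sox9* was highest in number 2 in both populations, collagens and other genes alike. *Acan* and *Sox9* were lowest there. *Acan* had 677 CPM in number 2 against 2542 and 2620 in Gli1+ and 591 against 957 and 1489 in Gli1- libraries. Of the chondrocyte markers, DESeq2 with the block called *Comp* (log2FC -1.41) and *Matn1* (-3.35) lower in Gli1+ cells. The call of *Comp* was lost without number 2 (DESeq2 adjusted p = 0.249) or number 3 (0.154). *Matn1* had no adjusted p without number 2. Markers of other cell types varied as well. The 3 superficial zone markers summed to 104 to 154 CPM in Gli1+ and 286 to 423 CPM in Gli1- libraries, without overlap. DESeq2 with the block called *Prg4* (log2FC -1.24) and *Erg* (-1.85) of these lower in Gli1+ cells. Both calls were lost without number 2 (DESeq2 adjusted p = 0.332 for each) or number 3 (0.449 and 0.316). The 5 hypertrophic markers ranged from 6566 to 8326 CPM in Gli1+ and from 2238 to 9550 CPM in Gli1- libraries, and the 4 osteoblast markers from 22.8 to 259 and from 45.6 to 655 CPM. Within the hypertrophic list, DESeq2 with the block called *Mmp13*, a collagenase, higher (log2FC 2.93) and *Col10a1*, the collagen of hypertrophic cartilage, lower in Gli1+ cells (-2.15). The 9 fibroblast markers summed to 1649 to 3910 CPM in Gli1+ and 2161 to 9633 CPM in Gli1- libraries. Their median edgeR log2FC was -1.29, with 8 of 9 below 0, beside -1.51 for the 7 inhibitors. Medians were -1.24 for superficial zone, -2.06 for endothelial, -2.86 for erythroid and -4.97 for leukocyte markers. They were -0.17 for chondrocyte, -0.15 for hypertrophic, -0.11 for osteoblast, -0.29 for muscle and 0.10 for resting zone markers. The endothelial and erythroid medians rest on 2 tested genes each and the muscle value on 1. Of the fibroblast markers, DESeq2 with the block called 3 lower, *Pdgfra* (-2.01), *Col3a1* (-1.34) and *Dpt* (-1.45). Without number 2 the calls of *Col3a1* and *Dpt* were lost (DESeq2 adjusted p = 0.327 and 0.648), and without number 3 all 3 were (adjusted p = 0.122 for *Pdgfra*, 0.453 for *Col3a1* and 0.578 for *Dpt*). Sums of the 3 resting zone markers ranged from 25.4 to 470 and from 69.7 to 636 CPM, again with number 2 highest in both. Most of these highest sums was *Ucma* (405 of the 470 and 603 of the 636 CPM). *Ucma* and *Foxa2* were each highest in number 2 in both populations. *Pthlh* was highest in Gli1+ replicate 2 but lowest in Gli1- replicate 2 (28.1 CPM, with 37.2 and 37.4 in replicates 1 and 3). The 8 leukocyte markers ranged from 37.5 to 166 CPM in Gli1+ and reached 3243 CPM in Gli1- replicate 1, against 56.6 and 183 in the other Gli1- libraries, and *Cd3e* was at 0 in every Gli1+ library. DESeq2 with the block called *Ptprc* lower (log2FC -3.38), a call lost without number 3 (adjusted p = 0.316). It had 54.7 CPM in Gli1- replicate 1 and 1.11 or less in every other library. Sums of 4 endothelial markers were 1.60 to 2.96 and 3.02 to 11.5 CPM, of 5 erythroid markers 0 to 4.67 and 0.582 to 19.1 CPM, and of 4 muscle markers 0 to 5.40 and 1.11 to 5.31 CPM, with *Myh1* and *Myh4* at 0 in every Gli1+ library. The part of these cell mixtures in the inhibitor differences was not tested.

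The genes whose log2 CPM followed *Sfrp5* most closely over the 6 libraries were *Timm44* (Pearson r = 0.993), *Tg* (0.981) and *Myo18b* (0.977). Of 14800 other genes, 79 had an r over 0.9, and the 6 libraries share population, pairing and depth, so these values only describe them. *Timm44* varied over a small range, with 38.5 to 50.7 CPM in the Gli1+ libraries and 32.7 to 38.5 CPM in the others.

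Of 72 further genes of the Wnt pathway, 50 were tested, and edgeR's quasi-likelihood test with adjustment called 0 of them. At an unadjusted p under 0.05, 4 were higher and 3 lower in Gli1+ cells, beside 3.47% of all genes in either direction. DESeq2 with the block called 1 of the 50 higher and 2 lower, beside 0.777% and 2.11% of all genes. Of 14 other inhibitors, some of them also secreted, 7 were tested. Their median log2FC was 0.081, and -0.27 by DESeq2 with the block, against -1.51 and -1.44 for the tested members above. Of these other inhibitors, 4 had an edgeR log2FC above 0 and 3 below. *Notum*, which encodes a secreted enzyme, was lower (-1.13 ± 0.69) in Gli1+ cells, without overlap between the populations. *Tpbg* (0.94 ± 0.39) and *Shisa2* (0.61 ± 0.45) were higher, also without overlap. Of all tested genes, 8.49% did not overlap, in either direction. The most abundant were *Igfbp4* (log2FC -1.25 ± 0.66), *Kremen1* (0.40 ± 0.52), a partner of DKK proteins at Lrp6, and *Trabd2b* (-0.43 ± 0.43). Wnt ligands, of which 9 of 19 were tested, had a median of 0.91, with 7 of 9 values above 0 and none at an unadjusted edgeR p under 0.05. Their most abundant member per length, *Wnt11*, a ligand of the non-canonical branch, had means of 73.9 ± 54.1 (Gli1+) and 51.2 ± 20.3 (Gli1-) CPM (SD, n = 3 each). In the same order by RPKM, *Wnt10b* followed with 14.1 ± 2.20 against 7.47 ± 0.39 CPM, without overlap between the populations (log2FC 0.91 ± 0.43), and *Wnt5b* with 6.19 ± 3.33 against 3.10 ± 0.70 CPM. The genes listed for ligand release, *Wls* (-0.50 ± 0.44) and *Porcn* (-0.56 ± 1.32), were both tested and neither passed.

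Of 17 receptors and co-receptors, all were tested, with a median log2FC of 0.028. The most abundant per length were *Ryk* (0.24 ± 0.39), *Fzd7* (-0.16 ± 0.41) and *Fzd9* (-1.25 ± 0.50). *Fzd10* had means of 1.12 ± 0.55 (Gli1+) and 6.78 ± 0.74 (Gli1-) CPM, without overlap (log2FC -2.59 ± 0.65), and DESeq2 with the block called it lower (adjusted p = 0.0047). That call was lost without number 2 (adjusted p = 0.277) or number 3 (0.251). The R-spondin axis, which sets receptor turnover, had 7 of 9 genes tested and a median of -0.16, with *Lgr4* at 0.01 ± 0.40, *Znrf3* at 0.65 ± 0.91 and *Lgr6* at -1.19 ± 0.56.

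Of 11 genes that respond to Wnt signals in many tissues, 8 were tested, with a median of -0.49. *Ccnd1*, which encodes cyclin D1 and which the study had also singled out on these libraries, had means of 114 ± 61.8 (Gli1+) and 41.4 ± 23.8 (Gli1-) CPM and was called higher by DESeq2 with the block (adjusted p = 0.00029). *Tnfrsf19* was called lower (1.296 ± 0.72 against 6.78 ± 3.83 CPM, adjusted p = 0.0048). Both calls were lost when number 2 (adjusted p = 0.192 and 0.304) or number 3 (0.221 and 0.438) was left out. *Axin2*, a negative regulator that is itself a target of beta-catenin, had a log2FC of -0.96 ± 0.73, *Lef1* 1.12 ± 0.58 and *Tcf7* 0.26 ± 0.48. *Bambi*, which encodes a TGF-beta pseudoreceptor, had 3.17, 31.1 and 8.25 CPM in Gli1+ and 15.7, 48.5 and 18.99 CPM in Gli1- replicates 1 to 3 (log2FC -0.97 ± 0.84). Of the 8 response genes, 3 had a log2FC above 0 and 5 below.

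**Figure D4:**
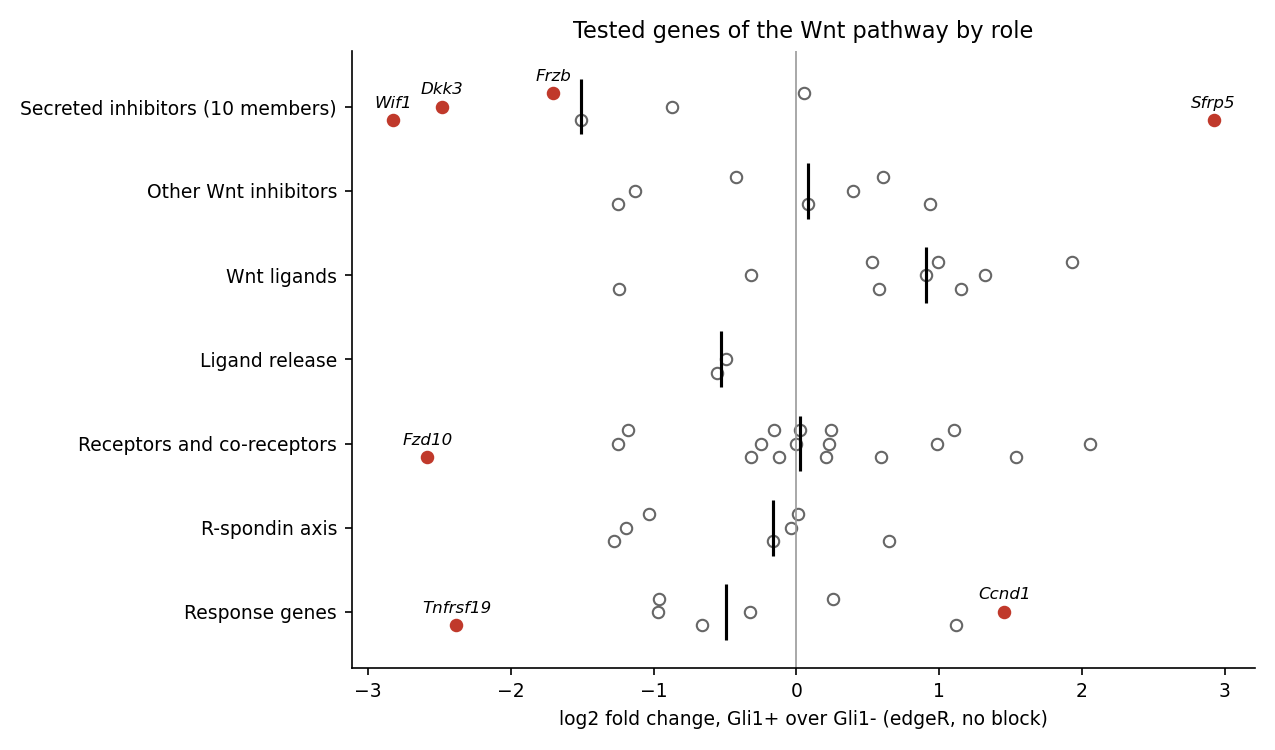
Log2 fold change (Gli1+ over Gli1-, edgeR without a block) of every tested Wnt pathway gene by role, with 1 circle per gene, filled red and named where DESeq2 with the replicate block called it, and black bars at the median of each role. The secreted inhibitors described here have a median of -1.51 and hold 4 of the 7 filled circles, while the ligands have a median of 0.91 and hold none. The row of other inhibitors also includes secreted proteins, such as those of *Notum* and *Igfbp4*.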

How the data were processed

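RNA of 6 sorted libraries was measured, and the authors deposited 1 table of raw counts per gene and library, with gene coordinates and lengths. Per the labels, reads were aligned with HISAT2 2.0.5 to mm10 and counted with featureCounts 1.5.0-p3, while the strand setting and annotation version are not given in the sources used here. Libraries were made from poly-A RNA with random hexamers, replicates were kept apart in the table, and 0 of its sample columns went unused. Of 54532 gene IDs, 54409 were found in GENCODE M21, which gave the gene positions.

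The filterByExpr function of edgeR (minimum count 10) kept 14801 genes, and libraries were scaled by TMM. The main test was edgeR's quasi-likelihood test (edgeR 4.0.16, limma 3.58.1, R 4.3.3) without a block. The SE given for edgeR is the |log2FC| divided by the square root of the F statistic of that test. A prior count of 2 was used for log2 CPM in the correlations only. Benjamini-Hochberg adjustment ran over the whole set of tested genes, and a gene was called at an adjusted p under 0.05 and a |log2FC| over 1. CPM used TMM-scaled library sizes, and RPKM divided CPM by the deposited gene length. Totals were 17114101 to 18602482 counts, and 3 counts were taken as the floor. Tables were made with Python 3.11.15 and pandas 2.3.3, and figures with matplotlib 3.10.9.

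By the study's account, the same mice gave cells to both populations. Deviations from the population means correlated between libraries of the same number over 14801 genes at 0.223, 0.720 and 0.471 for numbers 1, 2 and 3, all over 0.1. Same-numbered libraries were treated as pairs in the fits with the block and in the pair ratios. The main test used no block and so ignored the pairing. Gli1+ number 1 correlated slightly more with Gli1- number 3 (0.274) than with its own number, and Gli1+ number 3 also correlated with Gli1- number 1 (0.107). Alternatives were DESeq2 1.42.0 with and without the replicate block, edgeR with the block, RLE scaling, no filter, the adjusted p alone and each library left out. Leaving out both libraries of a number was added after seeing the data. The 10 members, the pathway lists and the marker lists were chosen with earlier results of these data known. Text names every member, *Gli1* and, per pathway list, the 3 genes highest by mean RPKM and any gene called by DESeq2 with the block. *Axin2*, *Lef1*, *Notum*, *Tpbg*, *Shisa2*, the marker genes named singly and the searches for GC, TATA and CCAAT boxes were chosen after values were seen.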

Additional observations from a re-analysis of the deposited data

How the results depend on the processing

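No member was called by edgeR with TMM or RLE scaling, with the replicate block, or without any 1 library, and *Wif1*, *Dkk3*, *Frzb*, *Sfrp1* and *Sfrp4* kept a negative and *Sfrp5* a positive log2FC in all 17 alternatives. Members called numbered 2 by edgeR without the filter on low counts (*Wif1* at -2.84 and *Dkk3* at -2.50). DESeq2 with the replicate block called 4, and 5, 2 and 2 without the libraries numbered 1, 2 and 3. Over all genes, calls numbered 0 in edgeR with the filter and 267 in edgeR without it. DESeq2 called 30 genes without the block, 428 with it, and 781, 174 and 71 with the block and without numbers 1, 2 and 3. DESeq2 with the replicate block called *Sfrp5* (2.54, and 2.87 without number 1), *Frzb* (-1.51 and -1.67), *Wif1* (-2.69, and -2.94, -2.50 and -2.59 without numbers 1, 2 and 3), *Dkk3* (-2.90, and -2.31, -3.37 and -3.05) and, without number 1, *Sfrp1* (-2.23). *Sfrp2* reversed with the replicate block in edgeR (-0.0037) and DESeq2 (-0.016), without number 2 in edgeR (-0.20), and without number 2 (-0.070) or 3 (-0.30) in DESeq2 with the block. With 1 library left out, its log2FC ran from -1.96 to 1.81. The same range was -3.61 to -1.66 for *Wif1*, -4.18 to -1.79 for *Dkk3*, -2.27 to -0.71 for *Frzb* and 1.82 to 3.41 for *Sfrp5*. The cause of the different numbers of calls was not tested. The biological coefficient of variation was 0.662, and 0.466 with the block, over 3 libraries a group.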
